A study of Homo sapiens with 9 samples.

Results

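The genes described here drive a cell through G2 and mitosis: the mitotic cyclins and kinases, the spindle checkpoint, the kinetochore, the mitotic kinesins, the spindle and cytokinesis factors, and condensin. A list of 52 such genes was taken, chosen with earlier results of these data known. Those with 10 or more counts in at least 3 of the 9 libraries were used, which left 51 of the 60325 gene rows. Only NUSAP1, a spindle microtubule protein, was left out, at 0.0875 to 1.74 CPM (counts per 1000000, scaled by TMM factors). All 51 were also among the 16796 genes tested. The cells were LAPC4, an established androgen-responsive human prostate cancer line, and RNA was sequenced at day 30. Rescue libraries came from cells in which UGT2B28, a UDP-glucuronosyltransferase that conjugates androgens, was overexpressed on the knockdown background (3 libraries, 1 mg/mL G418 selection). The knockdown-labelled libraries came from a line named KD4, in which UGT2B28 was to be knocked down (3 libraries, 3 ug/mL puromycin), and the rescue line carries its name too. Control libraries came from cells labelled NT (3 libraries, no drug given for them). The labels say neither whether KD4 and its rescue are clones or pools, nor whether replicates were grown apart. The p-values therefore cover the spread among these libraries alone, and that spread may be technical. Drug and label go together, so an effect of a drug cannot be told apart from one of UGT2B28.

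Entry into mitosis depends on CDK1 bound to cyclin B1, which is held inactive by the kinase WEE1 and released by CDC25 phosphatases. The spindle checkpoint then holds back CDC20 and the anaphase-promoting complex until every kinetochore is attached, after which securin and cyclin B1 are destroyed. Most of these genes are transcribed mainly late in the cell cycle, through promoters that carry CCAAT boxes bound by NF-Y and a cell cycle genes homology region (CHR) read by the DREAM and MYB-MuvB complexes, with FOXM1. Their mRNA in a bulk culture therefore follows how many cells are in G2 and mitosis, among other things, and fewer such cells and less of these mRNAs per cell cannot be told apart here.

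The libraries held 8132206 to 14185252 counts. UGT2B28 had 75.1, 92.9 and 53.5 CPM in rescue libraries, 8.48, 6.18 and 3.05 CPM in knockdown-labelled libraries, and 5.12, 5.10 and 7.79 CPM in controls. Rescue stood above both other groups, and the knockdown-labelled and control values overlapped. Part of the transcript sequence of UGT2B28 (5.4% of its short stretches) also occurs in other genes, UGT2B11 among them. The log2 fold change of UGT2B28 was 3.66 (SE 0.332, adjusted p = 0.00126) in rescue against knockdown-labelled libraries and -0.04 (SE 0.349, adjusted p = 0.957) in knockdown-labelled against control libraries, so the count does not bear out the knockdown label at the mRNA level. Knockdown-labelled library 3 stood apart from libraries 1 and 2: chi-square per degree of freedom between counts was 62 and 66.4 for library 3 against libraries 1 and 2, 3.46 between those, and 2.13 to 9.47 within the other groups. Mitochondrial transcripts took 6.96%, 5.79% and 7.90% of the counts in rescue, 15.1%, 15.8% and 10.2% in knockdown-labelled, and 8.17%, 8.57% and 7.62% in control libraries, and the TMM factors of knockdown-labelled libraries 1 and 2 were 0.793 and 0.8, against 1.03 to 1.11 elsewhere. The 10 prostate luminal markers were all detected, summing to 3688 to 6530 CPM. The 3 basal markers summed to 0.942 to 3.71 CPM, the 4 leukocyte markers to 3.26 to 10.5 CPM with PTPRC at 0 throughout, and the 5 fibroblast markers to 35.4, 49.9 and 114 CPM in rescue, 38.5, 35.7 and 37.1 CPM in knockdown-labelled libraries, and 20.7, 16.8 and 67.3 CPM in controls. The part of the mitochondrial share, the library 3 difference and the fibroblast markers in the results below was not tested.

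Of the 51 genes, 44 had a promoter in the RefSeq table (GRCh38.p14, 250 bases before to 50 after the listed start). The CHR letters TTTGAA, on either strand, stood in 33 of the 44 (75%), against 9.65% of the 10893 tested genes with a promoter and 15.4% of all 27305. Within the 110 bases nearest the end of the window, 27 of the 44 (61.4%) had them, against 2.95% of tested genes. The related letters TTCGAA stood in 2 of the 44 (4.55%, against 1.69%) and TTTAAA in 15 (34.1%, against 7.73%). CCAAT, on either strand, stood in 32 of the 44 (72.7%, against 37.1%), and 2 or more copies in 19 (43.2%, against 13.8%). In 4 places matches overlapped one another. The following stretches run from 130 bases before the start to 10 bases from it on. They belong to some of the genes whose levels differed between rescue and knockdown-labelled libraries. They are picked examples, each with CCAAT and either TTTGAA or TTTAAA, and show how these letters can be spaced. They are written 5′ to 3′ on the gene's strand, with every match in capitals.
KIF20A (chr5:138178982-138179121, plus strand): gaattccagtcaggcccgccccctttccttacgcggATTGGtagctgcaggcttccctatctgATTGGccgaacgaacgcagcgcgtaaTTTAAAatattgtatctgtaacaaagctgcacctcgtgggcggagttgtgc
CCNB1 (chr5:69167020-69167159, plus strand): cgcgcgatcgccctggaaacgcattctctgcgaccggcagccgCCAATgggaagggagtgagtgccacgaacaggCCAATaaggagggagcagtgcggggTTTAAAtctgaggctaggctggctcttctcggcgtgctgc
PTTG1 (chr5:160421725-160421864, plus strand): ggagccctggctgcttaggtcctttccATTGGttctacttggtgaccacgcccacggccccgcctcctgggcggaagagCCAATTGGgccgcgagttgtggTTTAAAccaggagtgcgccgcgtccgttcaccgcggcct
CDC20 (chr1:43358851-43358990, plus strand): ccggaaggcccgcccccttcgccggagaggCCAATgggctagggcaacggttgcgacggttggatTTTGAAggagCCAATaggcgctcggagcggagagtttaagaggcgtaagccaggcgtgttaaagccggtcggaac
SPC25 (chr2:168890421-168890560, minus strand): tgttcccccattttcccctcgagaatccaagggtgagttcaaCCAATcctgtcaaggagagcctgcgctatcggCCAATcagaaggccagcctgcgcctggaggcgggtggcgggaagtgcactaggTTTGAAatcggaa
INCENP (chr11:62123881-62124020, plus strand): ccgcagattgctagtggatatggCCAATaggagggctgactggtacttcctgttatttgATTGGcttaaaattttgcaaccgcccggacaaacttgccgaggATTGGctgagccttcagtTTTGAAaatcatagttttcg
KIF20A, CCNB1 and PTTG1 each have 2 or more CCAAT copies ahead of a single TTTAAA, which begins at positions -41, -30 and -29 (the start base is 0). CDC20 and SPC25 have no TTTAAA in these stretches but 1 TTTGAA each, at positions -65 and -3, and a second one farther from the start (-178 and -247, not shown). In SPC25 both CCAAT copies lie ahead of the nearer TTTGAA, and in CDC20 one lies ahead of it and one after it. INCENP, the gene that went the opposite way to these 5 between the groups, has 3 CCAAT copies and a TTTGAA beginning at position -10. Of the 11 genes with a promoter that fell in rescue against knockdown-labelled libraries, 6 held TTTGAA (54.5%) and 8 held CCAAT (72.7%), beside the 75% and 72.7% of all 44. Those of the 11 that are not printed lack the pair of letters in the same stretch. There CDC25C, NUF2 and MAD2L1 have no match, and NDC80 has no CCAAT. CCNA2 has 1 CCAAT but neither TTTGAA nor TTTAAA, and CDK1 only the cut end of a TTTAAA.

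**Figure D1:**
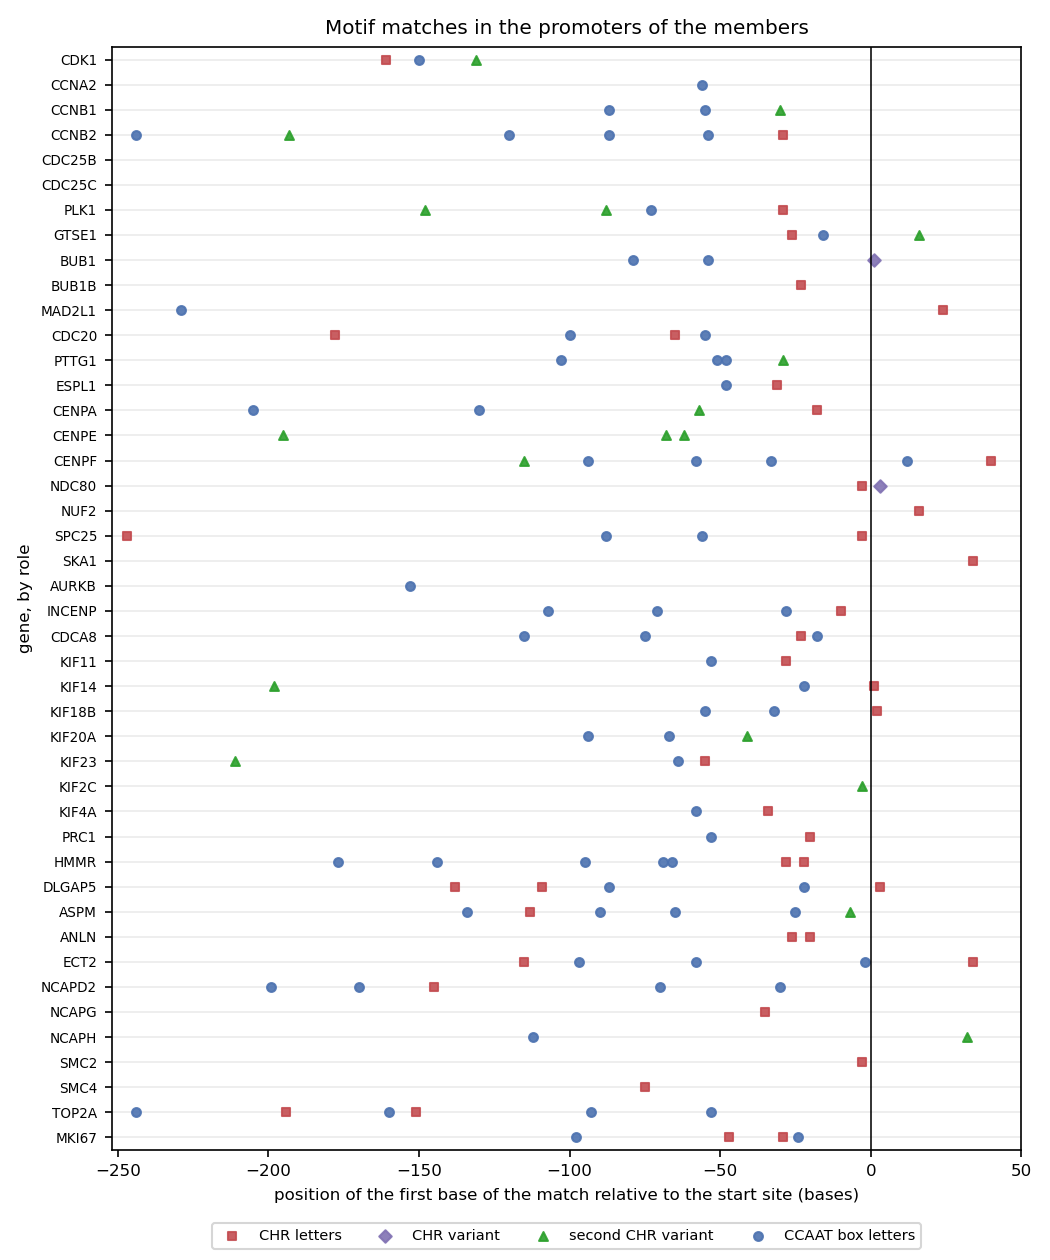
Position of each match to the CHR letters, its 2 variants and CCAAT in the 44 promoters, by gene (rows, grouped by role) and distance of the first base of the match from the start site in bases (0 is the start base). In 27 of the 44 genes a match to the CHR letters lies in the last 110 bases of the window.

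Rescue was set against the knockdown-labelled libraries, on whose background UGT2B28 was overexpressed. Here 13 of the 51 genes fell and 1 rose. CDK1, cyclin B1, the anaphase inhibitor securin (PTTG1), the kinesin KIF20A and the ubiquitin-conjugating enzyme UBE2C fell by 0.84 to 1.08 on the log2 scale, the outer kinetochore genes NDC80, NUF2 and SPC25 by 0.53 to 0.69, and INCENP, the scaffold of the chromosomal passenger complex, rose by 0.64. A gene passed at an adjusted p under 0.05 in edgeR's quasi-likelihood F test with Benjamini-Hochberg adjustment over all 16796 genes. By the same rule 5.39% of all genes were called lower and 4.44% higher, beside 25.5% and 1.96% of these 51. Log2 fold changes were negative for 43 of the 51, with a median of -0.35, against a median of -0.0023 over all genes tested. All 3 rescue libraries lay below all 3 knockdown-labelled libraries for 23 of the 51 and above them for 1, where 14.0% and 14.6% of all genes did so.

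These counts rest on the scaling and on single libraries. Without scaling factors the median of all genes moved to 0.24, with 1327 of them called higher and 230 lower, in place of 745 and 906. The median of the 51 then moved to -0.10, and 4 fell (CCNB1, CDK1, PTTG1 and UBE2C) while INCENP rose. As a share of raw counts, the 51 genes took 0.332%, 0.310% and 0.285% in rescue and 0.286%, 0.293% and 0.430% in knockdown-labelled libraries, against 0.365%, 0.368% and 0.344% in control libraries. The total of 14 called genes became 7 without knockdown library 1, 2 without knockdown library 2, 27 (23 lower, 4 higher) without knockdown library 3, and 2, 4 and 4 without rescue libraries 1, 2 and 3. Of all genes, 20.4% were called lower and 18.6% higher in the fit without knockdown library 3, and 0.249% to 3.24% lower in the others that left out 1 library. The total was 11, 10 and 11 without control libraries 1, 2 and 3. It was 0 when only the rescue and knockdown-labelled libraries were fitted, where 7 of 16418 genes passed in all. The fit that gave the 14 took its spread from all 9 libraries, the controls included. CCNB1 and KIF20A passed in 9 of the 9 fits that each left out 1 library, and no other of the 14 did.

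**Figure D2:**
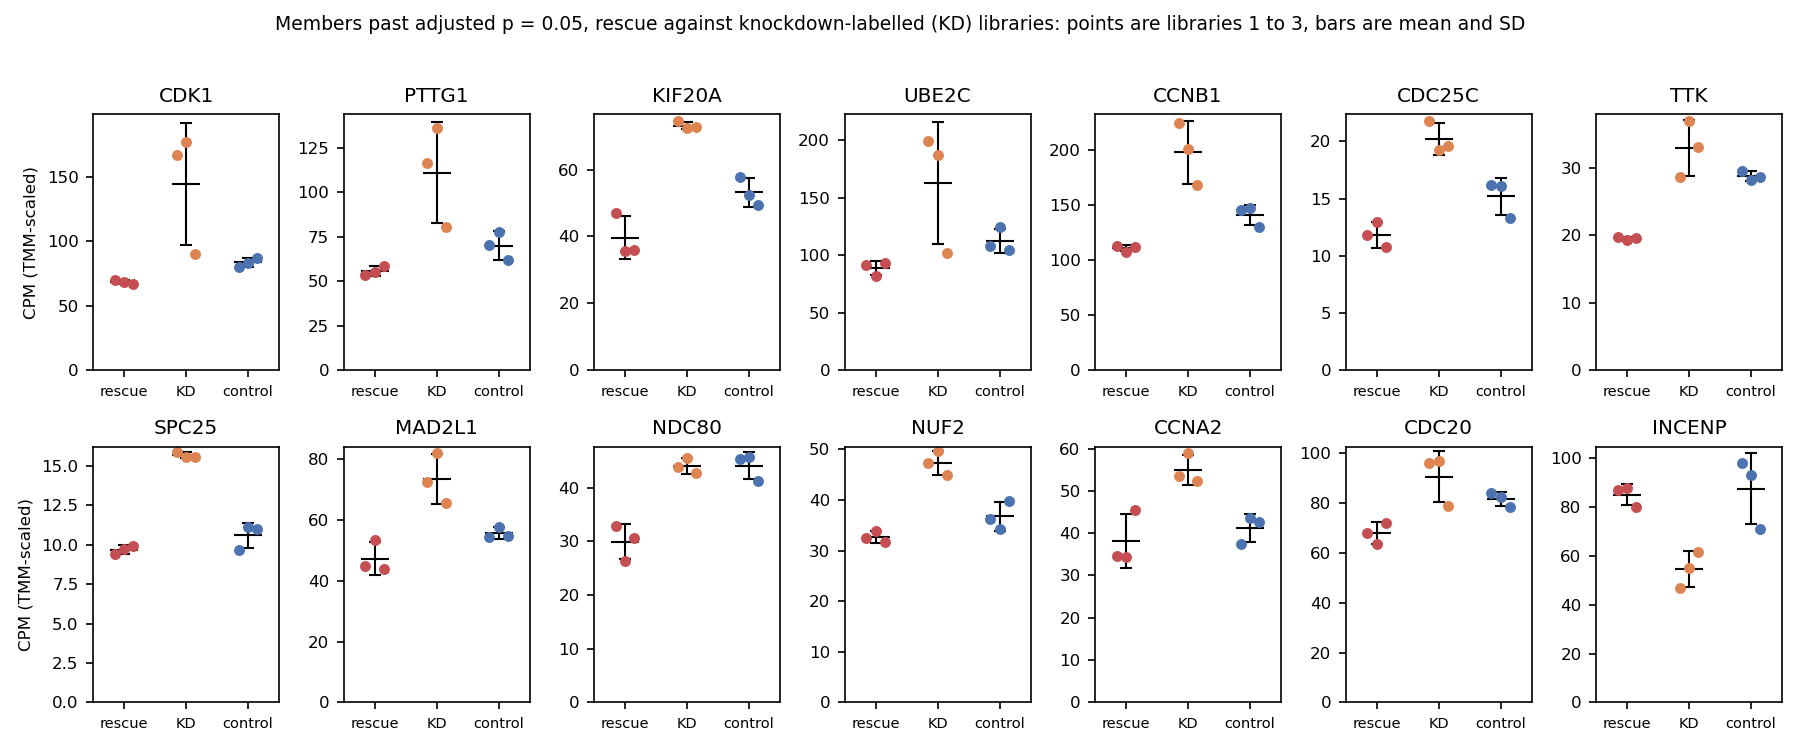
CPM scaled by TMM factors (linear axis from 0) of the 14 genes that passed in rescue against knockdown-labelled libraries, by group; points are libraries and bars the mean and SD of 3. The rescue points lie below the knockdown-labelled points for the first 13 genes and above them for INCENP, and in CDK1, PTTG1 and UBE2C 1 knockdown-labelled point lies well under the other 2.

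Among the 10 genes of entry into mitosis, 4 fell (40%), beside 5.39% of all genes called lower in rescue against knockdown-labelled libraries. CDK1, the mitotic kinase itself, had 70.1, 68.2 and 67.2 CPM in rescue libraries, 167, 177 and 89.9 CPM in knockdown-labelled libraries, and 80.2, 83.2 and 87.3 CPM in controls. Knockdown-labelled libraries 1 and 2 were the highest of the 9, and library 3 lay just above the controls. The log2 fold change of CDK1 in rescue against knockdown-labelled libraries was -1.08 (SE 0.209, adjusted p = 0.0156), and it passed in 5.0 of the 9.0 fits that each left out 1 library (adjusted p 4.29e-09 to 0.0725). Cyclin B1 (CCNB1), which activates CDK1 and had the highest level per kilobase of its role (58.6 CPM per kb over all libraries), was at 113, 107 and 112 CPM in rescue libraries, 225, 201 and 168 CPM in knockdown-labelled libraries, and 145, 147 and 130.1 CPM in controls. The 3 groups did not overlap for cyclin B1, rescue being lowest and knockdown-labelled highest. Its log2 fold change in rescue against knockdown-labelled libraries was -0.84 (SE 0.129, adjusted p = 0.00909).

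CDC25C, a phosphatase that switches CDK1 on, had 11.8, 12.9 and 10.7 CPM in rescue libraries, 21.8, 19.2 and 19.6 CPM in knockdown-labelled libraries, and 16.2, 16.1 and 13.3 CPM in controls, again with no overlap between the 3 groups, and changed by -0.77 (SE 0.154, adjusted p = 0.0173) in rescue against knockdown-labelled libraries. It passed in 4.0 of the 9.0 fits that each left out 1 library (adjusted p 0.000958 to 0.0753). Cyclin A2 (CCNA2), which acts in S phase and early mitosis, had 34.5, 34.5 and 45.5 CPM in rescue libraries, 53.4, 59.1 and 52.3 CPM in knockdown-labelled libraries, and 37.4, 43.7 and 42.6 CPM in controls. Rescue and control libraries overlapped for it, and the log2 fold change of rescue against knockdown-labelled libraries was -0.53 (SE 0.138, adjusted p = 0.0389); it passed in 2.0 of the 9.0 fits that each left out 1 library (adjusted p 0.0017 to 0.149). Part of the exons of CCNA2 (9.08%) lies opposite EXOSC9 and of CDC25C (8.78%) opposite FAM53C, as do 12.5% of those of PLK1 opposite ERN2 and AC008870.3 and 15.9% of those of FOXM1 opposite ITFG2, and the labels do not say if reads were assigned by strand.

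The other 6 entry genes did not pass. The Polo-like kinase PLK1 had 95.6, 77.3 and 76.5 CPM in rescue libraries, 84.5, 77.9 and 104 CPM in knockdown-labelled libraries, and 112, 105 and 111 CPM in controls, so that rescue and knockdown-labelled libraries overlapped, both lying under the controls (log2 fold change -0.09 (SE 0.139, adjusted p = 0.7) in rescue against knockdown-labelled libraries). Cyclin B2 (CCNB2) stood at -0.33 (SE 0.124, adjusted p = 0.113), the kinase AURKA at -0.55 (SE 0.231, adjusted p = 0.151) and the transcription factor FOXM1 at -0.29 (SE 0.141, adjusted p = 0.209) on the log2 scale in the same comparison. The phosphatase CDC25B stood at 0.10 and GTSE1, a microtubule-binding protein of G2, at 0.06. CDC25B and CDC25C, which act on the same kinase, thus had log2 fold changes of opposite sign, and their intervals of -0.13 to 0.33 and -1.11 to -0.43 did not overlap.

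Of the 9 genes of the spindle checkpoint and anaphase control, 5 fell (55.6%), beside 5.39% of all genes called lower. Securin (PTTG1), which blocks separase until anaphase, had 53.3, 55.4 and 58.5 CPM in rescue libraries, 116, 136 and 80.4 CPM in knockdown-labelled libraries, and 70.1, 77.9 and 61.6 CPM in controls. As for CDK1, knockdown-labelled library 3 lay between the other knockdown-labelled libraries and the controls. PTTG1 changed by -0.99 (SE 0.177, adjusted p = 0.0119) in rescue against knockdown-labelled libraries and passed in 5.0 of the 9.0 fits that each left out 1 library (adjusted p 1.02e-07 to 0.0652). UBE2C, which passes ubiquitin to substrates of the anaphase-promoting complex, had the highest level per kilobase of all 51 genes (94.3 CPM per kb) and stood at 91.6, 81.9 and 92.9 CPM in rescue libraries, 199, 187 and 102 CPM in knockdown-labelled libraries, and 108, 124 and 105 CPM in controls. Knockdown-labelled library 3 lay just below the controls for UBE2C, while libraries 1 and 2 were far above them. In rescue against knockdown-labelled libraries UBE2C stood at -0.87 (SE 0.212, adjusted p = 0.03), and it passed in 1.0 of the 9.0 fits that each left out 1 library (adjusted p 5.62e-08 to 0.118).

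TTK, the kinase that starts checkpoint signalling at unattached kinetochores, had 19.8, 19.2 and 19.6 CPM in rescue libraries, 28.7, 36.9 and 33.1 CPM in knockdown-labelled libraries, and 29.6, 28.2 and 28.6 CPM in controls. The rescue values were closely grouped and lay below every value of both other groups, which overlapped each other. TTK changed by -0.75 (SE 0.129, adjusted p = 0.0105) in rescue against knockdown-labelled libraries and passed in 7.0 of the 9.0 fits that each left out 1 library (adjusted p 0.000216 to 0.0526). MAD2L1, the checkpoint protein that sequesters CDC20, had 44.8, 53.4 and 43.7 CPM in rescue libraries, 72.5, 82.1 and 65.6 CPM in knockdown-labelled libraries, and 54.3, 57.9 and 54.8 CPM in controls, and its 3 groups did not overlap, rescue being lowest. Its log2 fold change was -0.63 (SE 0.125, adjusted p = 0.017), and it passed in 6.0 of the 9.0 fits that each left out 1 library (adjusted p 3.61e-05 to 0.0801).

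CDC20, the activator of the anaphase-promoting complex that MAD2L1 restrains, had 67.9, 63.4 and 72.2 CPM in rescue libraries, 96.1, 96.9 and 79.0 CPM in knockdown-labelled libraries, and 84.1, 82.5 and 78.4 CPM in controls. Rescue lay below both other groups, with a log2 fold change of -0.42 (SE 0.117, adjusted p = 0.0468) against knockdown-labelled libraries, and CDC20 passed in 1.0 of the 9.0 fits that each left out 1 library (adjusted p 0.000238 to 0.168). The checkpoint kinase BUB1 stood at -0.35, its partners BUB1B at -0.26 and BUB3 at -0.24, and separase (ESPL1) at 0.01 on the log2 scale, and none of the 4 passed (adjusted p 0.154 to 0.974). BUB1B shares 10.2% of its exon bases with the readthrough gene BUB1B-PAK6 on the same strand, so its count is uncertain.

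All 7 kinetochore and centromere genes had a negative log2 fold change in rescue against knockdown-labelled libraries. Of them 3 passed (42.9%), beside 5.39% of all genes called lower. NDC80, NUF2 and SPC25 are subunits of the NDC80 complex, the rod that holds the microtubule at the outer kinetochore. NDC80 had 32.8, 26.4 and 30.6 CPM in rescue libraries, 43.9, 45.5 and 42.6 CPM in knockdown-labelled libraries, and 45.3, 45.7 and 41.1 CPM in controls, so that knockdown-labelled and control libraries overlapped and rescue lay below both (-0.56 (SE 0.120, adjusted p = 0.0209)). NUF2 had 32.5, 33.9 and 31.6 CPM in rescue libraries, 47.2, 49.6 and 44.9 CPM in knockdown-labelled libraries, and 36.2, 34.2 and 39.8 CPM in controls, and SPC25 had 9.42, 9.71 and 9.94 CPM in rescue libraries, 15.9, 15.5 and 15.6 CPM in knockdown-labelled libraries, and 9.66, 11.1 and 11.0 CPM in controls. For NUF2 and SPC25 the knockdown-labelled libraries lay above every rescue and control library.

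The log2 fold change in rescue against knockdown-labelled libraries was -0.53 (SE 0.112, adjusted p = 0.0199) for NUF2 and -0.69 (SE 0.152, adjusted p = 0.0222) for SPC25. NDC80 passed in 4.0 of the 9.0 fits that each left out 1 library (adjusted p 0.00078 to 0.0893), NUF2 passed in 4 and SPC25 in 4 of the 9. The microtubule-coupling subunit SKA1 stood at -0.61 (SE 0.178, adjusted p = 0.0533) and the centromeric histone CENPA at -0.82 (SE 0.245, adjusted p = 0.0586). CENPA shares 6.96% of its exon bases with SLC35F6 on the same strand, so its count is uncertain. CENPF, a large kinetochore protein and the highest of its role per kilobase (14.3 CPM per kb), had 143, 152 and 141 CPM in rescue libraries, 139, 137 and 249.6 CPM in knockdown-labelled libraries, and 174, 185 and 189 CPM in controls. In CENPF knockdown-labelled library 3 was the highest of the 9, and libraries 1 and 2 were the lowest. Its log2 fold change was -0.27 (SE 0.205, adjusted p = 0.421), and that of the kinetochore motor CENPE was -0.22 (adjusted p = 0.607).

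The 4 genes of the chromosomal passenger complex, which corrects wrong attachments and guides cytokinesis, did not move together. INCENP, its scaffold, had 87.2, 87.8 and 80.1 CPM in rescue libraries, 47.0, 55.1 and 61.8 CPM in knockdown-labelled libraries, and 98.2, 93.3 and 71.0 CPM in controls. All 3 knockdown-labelled libraries were the lowest of the 9 for INCENP, library 3 included, and rescue and control libraries overlapped. INCENP changed by 0.64 (SE 0.148, adjusted p = 0.0263) in rescue against knockdown-labelled libraries, and it passed in 3.0 of the 9.0 fits that each left out 1 library (adjusted p 0.000163 to 0.0974). Its partners stood at a negative value: the kinase AURKB at -0.38 (SE 0.183, adjusted p = 0.199), survivin (BIRC5) at -0.51 (SE 0.174, adjusted p = 0.0897) and borealin (CDCA8) at -0.32 (SE 0.172, adjusted p = 0.255). AURKB, the highest of the 4 per kilobase (35.3 CPM per kb), had 71.8, 54.9 and 68.5 CPM in rescue libraries, 98.1, 96.7 and 59.7 CPM in knockdown-labelled libraries, and 85.1, 91.0 and 86.3 CPM in controls, with knockdown-labelled library 3 inside the rescue range.

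Of the 7 kinesins, 1 passed (14.3%), beside 5.39% of all genes called lower and 4.44% called higher. KIF20A, which carries the chromosomal passenger complex to the central spindle, had 47.0, 35.7 and 36.1 CPM in rescue libraries, 74.4, 72.4 and 72.7 CPM in knockdown-labelled libraries, and 57.9, 52.5 and 49.3 CPM in controls. Its 3 groups did not overlap, and the 3 knockdown-labelled libraries lay close together in spite of the differences between them elsewhere. KIF20A changed by -0.88 (SE 0.132, adjusted p = 0.00866) in rescue against knockdown-labelled libraries, with the smallest adjusted p of the 51 genes. KIF2C, a microtubule depolymerase and the highest kinesin per kilobase (14.8 CPM per kb), had 55.1, 48.5 and 46.1 CPM in rescue libraries, 55.0, 48.1 and 59.4 CPM in knockdown-labelled libraries, and 56.9, 60.3 and 55.8 CPM in controls, with overlapping groups and a log2 fold change of -0.12 (SE 0.121, adjusted p = 0.568). The spindle motor KIF11 stood at -0.41, the cytokinesis motors KIF23 and KIF14 at -0.21 and -0.08, the chromokinesin KIF4A at 0.01 and KIF18B, which shortens astral microtubules, at 0.19. Exons of KIF20A lie opposite BRD8 and CDC23 over 5.05% of their length.

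No gene of spindle assembly and cytokinesis or of condensin and chromosome structure passed in rescue against knockdown-labelled libraries. TPX2, which activates AURKA on the spindle and was the highest of its role per kilobase (27.1 CPM per kb), had 81.8, 74.4 and 75.4 CPM in rescue libraries, 86.8, 111 and 149 CPM in knockdown-labelled libraries, and 104, 96.8 and 99.9 CPM in controls. Rescue lay below both other groups for TPX2, with a log2 fold change of -0.58 (SE 0.170, adjusted p = 0.0546). The spindle protein HMMR had 22.7, 23.2 and 18.2 CPM in rescue libraries, 26.4, 30.2 and 39.3 CPM in knockdown-labelled libraries, and 29.0, 32.2 and 28.4 CPM in controls, rescue again lying below both others (-0.58 (SE 0.169, adjusted p = 0.0533)). Topoisomerase II alpha (TOP2A), which untangles sister DNA and was the highest of its role per kilobase (28.6 CPM per kb), had 174, 166 and 149 CPM in rescue libraries, 206, 198 and 233 CPM in knockdown-labelled libraries, and 185, 169 and 176 CPM in controls, with a log2 fold change of -0.38 (SE 0.118, adjusted p = 0.0636).

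Among the rest of these roles, the condensin subunits NCAPG and NCAPD2 stood at -0.48 (SE 0.140, adjusted p = 0.0533) and -0.37 (SE 0.114, adjusted p = 0.0643), and NCAPH, SMC2 and SMC4 at -0.17, -0.27 and -0.18 on the log2 scale. NCAPG lies opposite LCORL over 33.1% of its exon bases and SMC4 opposite IFT80 and TRIM59 over 25.6%, so both are uncertain. The proliferation antigen MKI67 stood at 0.25, the spindle pole protein ASPM at -0.08, the spindle protein DLGAP5 at -0.49, anillin (ANLN), which scaffolds the cleavage furrow, at -0.16 and ECT2, the exchange factor that places the furrow, at -0.02. PRC1, which bundles the central spindle, was counted at only 0.262 to 2.36 CPM. AC068831.7 covers 57.6% of its exon bases on the same strand, as AC087721.2 covers 62.2% of those of NUSAP1, so both are uncertain. PRC1 is one of the genes with a positive value in rescue against knockdown-labelled libraries and of those with a negative value in the other comparisons.

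**Figure D3:**
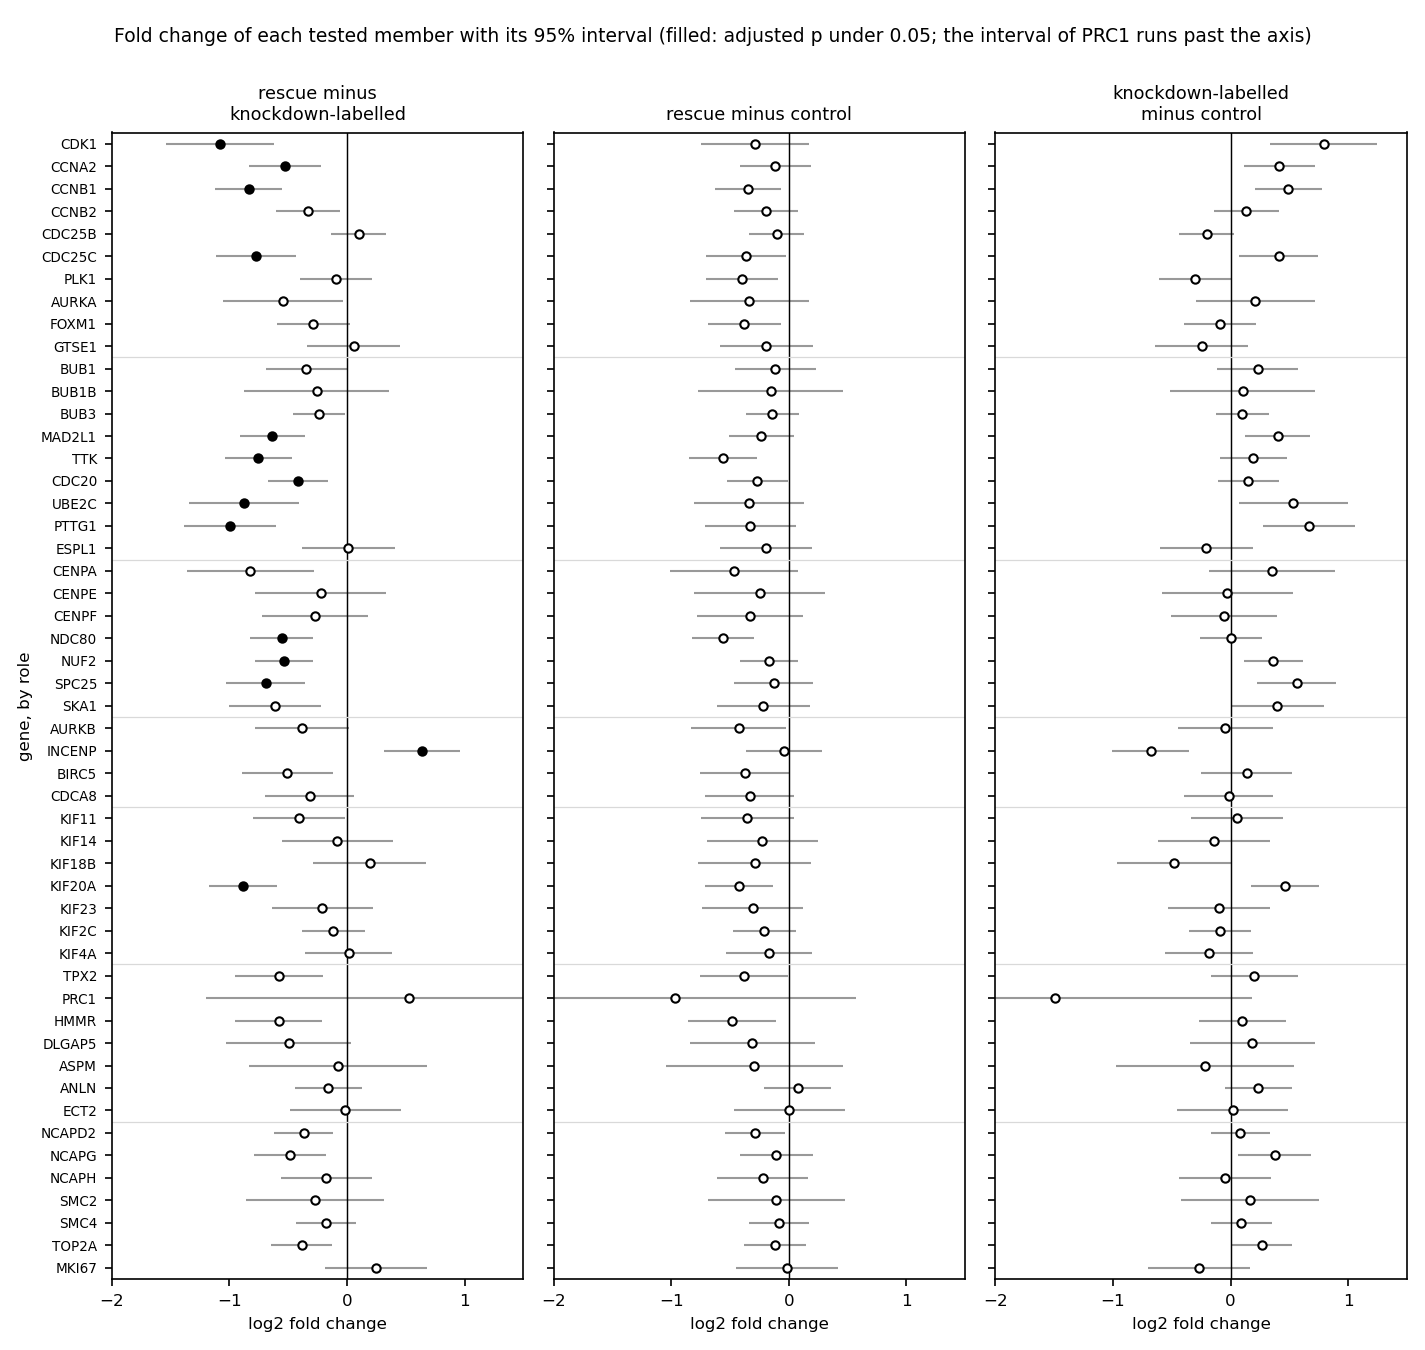
Log2 fold change (points) and 95% confidence interval (lines) of each of the 51 genes, by role, in the 3 comparisons; filled points have an adjusted p under 0.05. Of the 51 genes, 43 lie below 0 in rescue against knockdown-labelled libraries, with 14 filled, 49 in rescue against control libraries and 20 in knockdown-labelled against control libraries, with none filled in either.

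Rescue against control sets cells with UGT2B28 overexpressed beside the cells labelled NT. In it 49 of the 51 genes had a negative log2 fold change, the exceptions being ANLN (0.07) and ECT2 (0.0043), and the median was -0.27, against -0.0066 over all genes tested. None passed, where 0.00595% of all genes were called lower and 0.143% higher. At an unadjusted p under 0.05 there were 12 (23.5%), beside 10.5% of all genes. The DESeq2 Wald test called 2 lower, NDC80 and TTK, and none higher, beside 0.50% and 1.44% of all genes. All 3 rescue libraries lay below all 3 control libraries for 25 of the 51 genes and above them for 0, where 13.6% and 12.8% of all genes did so. This comparison shares the rescue libraries with the one above, so they are not independent accounts of the level in rescue.

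Its largest differences by p were in NDC80, at -0.56 (SE 0.120, adjusted p = 0.108), TTK, at -0.56 (SE 0.130, adjusted p = 0.133), KIF20A, at -0.42 (SE 0.132, adjusted p = 0.267), HMMR, at -0.48 (SE 0.169, adjusted p = 0.333), and PLK1, at -0.40 (SE 0.139, adjusted p = 0.338) on the log2 scale. The per-library values given above show no overlap between rescue and control libraries for any of these 5 genes. Mean levels were 19.5 ± 0.267 CPM in rescue and 28.8 ± 0.721 CPM in control libraries for TTK, 29.9 ± 3.22 and 44.0 ± 2.54 CPM for NDC80, and 111 ± 3.04 and 141 ± 9.29 CPM for CCNB1 (SD, n = 3 each). In each of the 7 roles the median was negative, between -0.11 for condensin and chromosome structure and -0.35 for the chromosomal passenger complex.

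The test of this comparison takes its spread from all 9 libraries, the unlike knockdown-labelled ones included. When only the rescue and control libraries were fitted, 11 of the 51 genes fell (AURKB, BIRC5, CCNB1, CENPF, FOXM1, HMMR, NDC80, PLK1, TPX2, TTK and UBE2C) and none rose, beside 1.95% of all genes called lower and 3.92% higher in that fit. Without knockdown library 3 the count was 16 lower, beside 2.86% of all genes, and without knockdown libraries 1 and 2 it was 12, beside 1.89%. With any other single library left out it was 0, and the number of genes with a negative value stayed between 47 and 50 of 51 or 52 in every alternative run (NUSAP1 passed the filter in some).

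Knockdown-labelled libraries were set against the controls as their labels pair them, although the UGT2B28 values of these groups overlapped. None of the 51 genes passed, where 0.00595% of all genes were called higher and 0.00% lower. At an unadjusted p under 0.05 there were 14 (27.5%), beside 19.1% of all genes. The DESeq2 Wald test called 5 higher (CCNB1, CDK1, KIF20A, PTTG1 and SPC25) and INCENP lower, beside 3.45% and 2.55% of all genes. The median log2 fold change was 0.10, with 31 of 51 positive, against 0.015 over all genes. Without scaling factors it was -0.11 with 32 of 51 negative, against -0.21 over all genes, and with each library left out it ran from 0.024 (without knockdown library 3) to 0.16 (without knockdown library 1). All 3 knockdown-labelled libraries lay above all 3 control libraries for 11 genes and below them for 3, beside 11.0% and 10.2% of all genes. The smallest adjusted p were those of INCENP, at -0.68 (SE 0.148, adjusted p = 0.0781), CDK1, at 0.79 (SE 0.208, adjusted p = 0.0993), CCNB1, at 0.49 (SE 0.128, adjusted p = 0.0993), PTTG1, at 0.67 (SE 0.177, adjusted p = 0.0993), and SPC25, at 0.56 (SE 0.153, adjusted p = 0.104).

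These counts turned on knockdown library 3. Without knockdown library 3, 25 of the 51 genes passed against control, 14 higher and 11 lower, beside 18.1% and 14.8% of all genes called in that fit. The higher ones were AURKA, BIRC5, CCNA2, CCNB1, CDK1, CENPA, KIF20A, MAD2L1, NCAPG, NUF2, PTTG1, SKA1, SPC25 and UBE2C, and the lower ones ASPM, BUB1B, CDC25B, CENPF, GTSE1, INCENP, KIF14, KIF23, KIF4A, MKI67 and PLK1. Library 3 on its own gave 7 higher (BUB1, BUB1B, CENPF, DLGAP5, ECT2, SMC2 and TPX2) and 3 lower (AURKB, INCENP and KIF18B), beside 2.34% and 9.07% of all genes, with its spread assumed to be that of the other groups. BUB1B and CENPF therefore passed in opposite directions against control in these 2 fits, and INCENP was lower in both. Of the 51 genes, 16 lay below the control mean in knockdown-labelled libraries 1 and 2 and above it in library 3, 7 did the reverse, 15 lay above it and 6 below it in all 3.

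**Figure D4:**
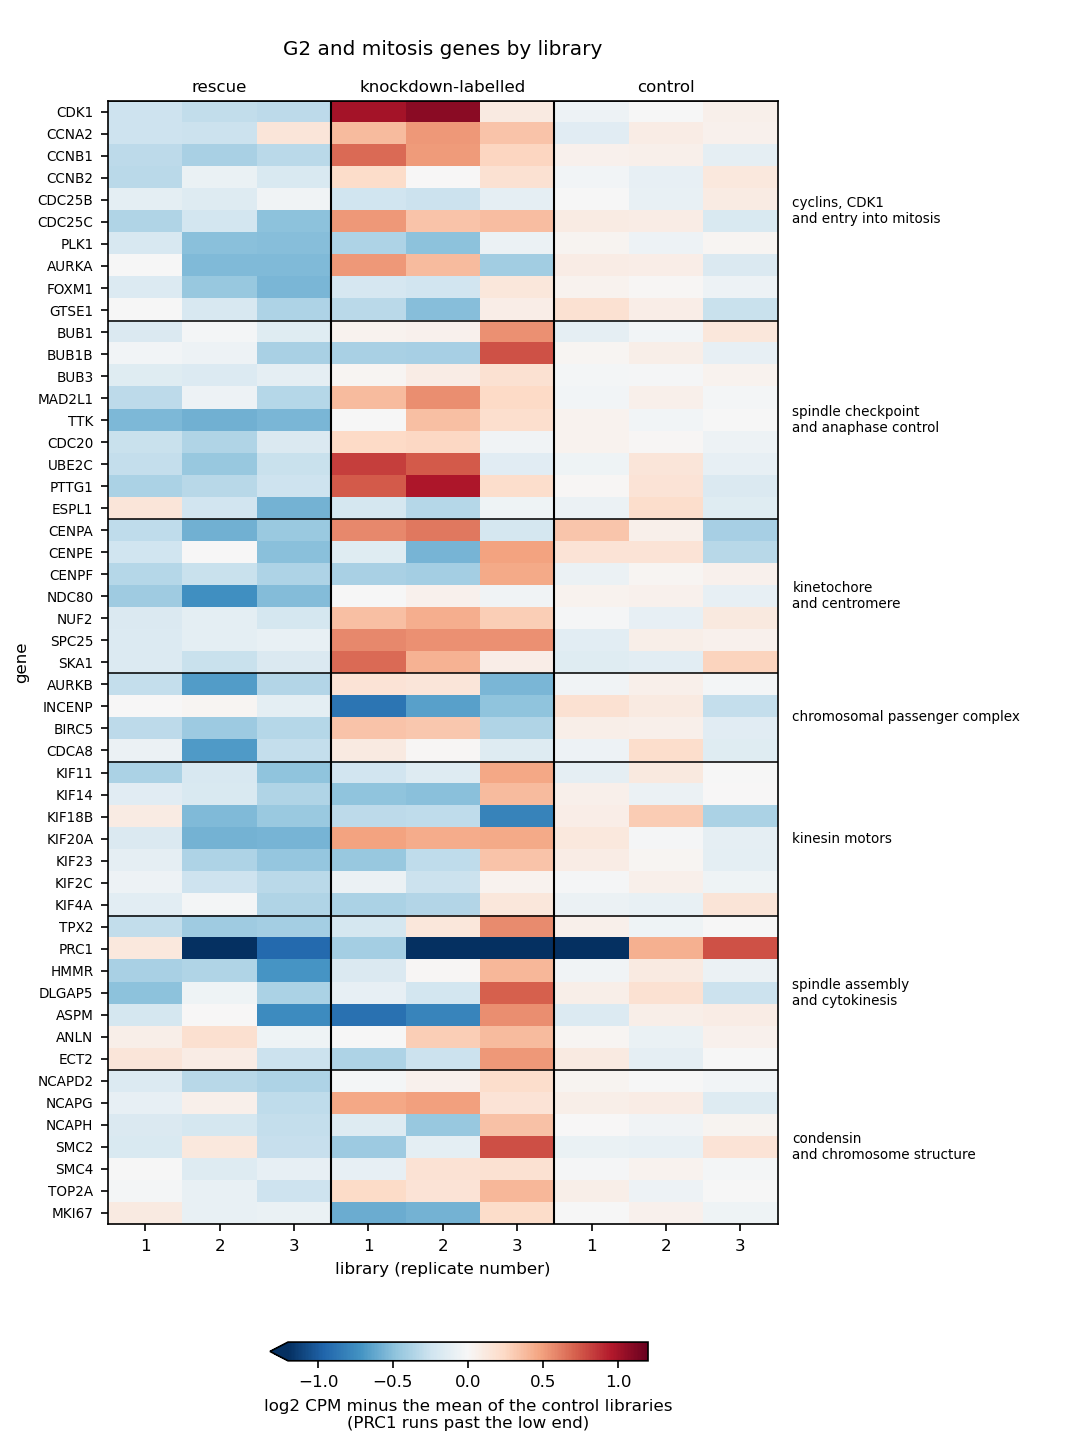
Level of each of the 51 genes (rows, by role) in each library (columns) as log2 CPM minus the mean of the 3 control libraries, on a colour scale from blue (lower) to red (higher). In rescue 39 genes lie below the control mean in all 3 libraries, while 16 genes are below it in knockdown-labelled libraries 1 and 2 and above it in library 3.

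In knockdown-labelled libraries 1 and 2 the shorter genes stood higher than the longer ones. Exon length ran from 1286 bases in UBE2C to 12807 in MKI67, with a median of 4473, close to the 4252 of all genes tested. Across the 51 genes, Pearson's r between log2 length and the log2 level relative to the control mean was 0.36, 0.28 and -0.16 in rescue libraries 1, 2 and 3, -0.65, -0.57 and 0.21 in knockdown-labelled libraries 1, 2 and 3, and -0.091, -0.073 and 0.14 in controls. The same r over the 16187 tested genes with a length was 0.046, 0.052 and -0.036 in rescue, and -0.074, -0.049 and 0.16 in knockdown-labelled ones. These are descriptions across genes of the same libraries, not over replicates. The 25 genes above the median length had medians of -0.23, -0.25 and 0.24 in knockdown-labelled libraries 1, 2 and 3, and the other 26 had 0.29, 0.29 and 0.09.

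In rescue against knockdown-labelled libraries 5.39% of all genes were called lower, a share that was not split by length. There the 25 longer genes had a median log2 fold change of -0.22, with 2 called lower. The 26 shorter ones had -0.54, with 11 called lower. In rescue against control libraries the medians were -0.22 and -0.32, with none called in either. GC content, taken from the longest transcript of each gene, had a median of 43.4% in the 51 genes and 48.6% in all tested genes. Pearson's r of GC content with the log2 fold change in rescue against knockdown-labelled libraries was 0.244 over all genes, and that of log2 length 0.0388. Across the 51 genes these were 0.325 and 0.53. In knockdown-labelled against control libraries the r of GC content was -0.219 over all genes and -0.375 across the 51. In rescue against control libraries it was 0.0762 and -0.12. After a correction of the counts for length and GC content, 10 genes fell and none rose in rescue against knockdown-labelled libraries, beside 1019 lower and 366 higher of all genes, and the median was -0.30. INCENP was no longer called. NCAPD2 was called, and 9 of the 14 genes remained.

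**Figure D5:**
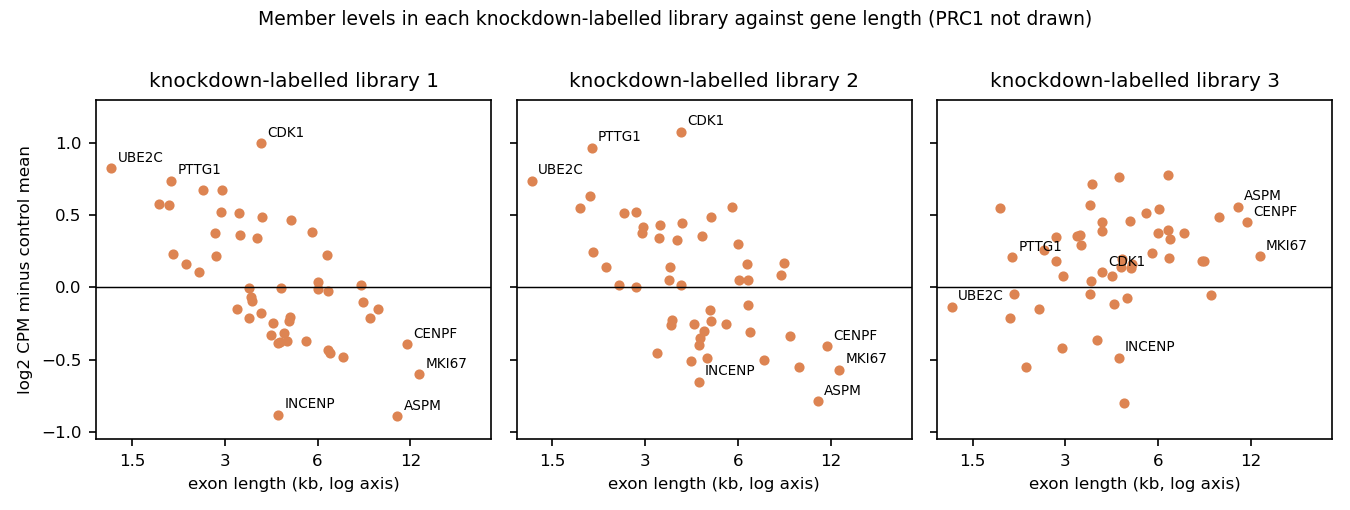
Log2 CPM minus the control mean of 50 of the 51 genes (PRC1 not drawn) against exon length in kb (log axis), for each knockdown-labelled library. In libraries 1 and 2 the short genes UBE2C and PTTG1 lie above 0 and the long ones CENPF, ASPM and MKI67 below 0, while in library 3 UBE2C lies below 0 and PTTG1 and the 3 long genes above it.

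Other genes of the same machinery were counted from fixed lists. Of 58 further genes expressed in G2 and mitosis, 14 fell and 1 rose in rescue against knockdown-labelled libraries, with a median log2 fold change of -0.36 and 52 of 58 negative. As shares of the list these are 24.1% and 1.72%, beside 5.39% of all genes called lower and 4.44% called higher. The median over all genes was -0.0023. Those that fell included the inner kinetochore subunits CENPU (-0.87 (SE 0.111, adjusted p = 0.00737)) and CENPW (-1.10 (SE 0.176, adjusted p = 0.00909)), the abscission protein CEP55 (-1.0 (SE 0.151, adjusted p = 0.00877)) and the mitotic kinase PBK (-0.73 (SE 0.107, adjusted p = 0.00866)). The remaining 10 were NEK2, OIP5, SKA3, SGO1, SGO2, CKAP2, BORA, PSRC1, CDKN3 and STMN1, with log2 fold changes of -1.13 to -0.61. The gene that rose was WEE1, the kinase that holds CDK1 inactive, at 84.3, 122 and 85.8 CPM in rescue libraries, 56.5, 51.7 and 76.9 CPM in knockdown-labelled libraries, and 63.8, 58.3 and 71.4 CPM in controls (0.66 (SE 0.186, adjusted p = 0.049)). WEE1 passed in 1 of the 9 fits that each left out 1 library, the one without knockdown library 3. The number of these 58 that fell ran from 4 to 32 with each library left out, and was highest without knockdown library 3, where 20.4% of all genes were called lower. In rescue against control libraries 54 of these 58 were negative with a median of -0.25, and none passed in that comparison or in knockdown-labelled against control, where 19 (32.8%) and 13 (22.4%) had an unadjusted p under 0.05, beside 10.5% and 19.1% of all genes.

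Of 15 subunits of the anaphase-promoting complex, 2 fell in rescue against knockdown-labelled libraries, CDC16 at -0.44 (SE 0.112, adjusted p = 0.0364) and ANAPC13 at -0.53 (SE 0.120, adjusted p = 0.0242). These are 13.3% of the list, beside 5.39% of all genes called lower and 4.44% called higher. Among 12 cohesin genes, the cohesin subunit RAD21 fell (-0.44 (SE 0.116, adjusted p = 0.0395)) and the loader subunit MAU2 rose (0.44 (SE 0.0991, adjusted p = 0.0243)), with a median of -0.027. Each is 8.33% of the list, beside the same shares of all genes. Of 13 genes of the DREAM, MuvB and RB family, which repress or activate the CHR promoters, 4 fell (30.8%): LIN9 (-0.88 (SE 0.137, adjusted p = 0.00909)), E2F5 (-0.88 (SE 0.190, adjusted p = 0.0209)), LIN52 (-0.68 (SE 0.190, adjusted p = 0.0478)) and RBBP4 (-0.55 (SE 0.126, adjusted p = 0.0246)). LIN9, a core MuvB subunit, had 18.1, 18.3 and 14.8 CPM in rescue libraries, 31.8, 33.7 and 29.1 CPM in knockdown-labelled libraries, and 26.6, 25.3 and 23.9 CPM in controls, with no overlap between the 3 groups. With each library left out, the number that fell ran from 0 to 5 for the anaphase-promoting complex, 0 to 4 for cohesin and 1 to 5 for the DREAM list, each highest without knockdown library 3, and in cohesin the number that rose ran from 0 to 5. Without knockdown library 3, 20.4% of all genes were called lower and 18.6% higher. In the other fits of this kind 0.249% to 3.24% were called lower and 0.527% to 2.89% higher. None of the 6 tested CDK inhibitors passed, and their median was 0.10.

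Of 37 genes of G1/S and DNA replication, 7 fell and none rose in rescue against knockdown-labelled libraries, with a median of -0.22: the replication clamp PCNA and cyclin E2 (CCNE2), the origin licensing factor CDC6, the ribonucleotide reductase subunit RRM2, the primase subunit PRIM2 and the clamp loaders RFC2 and RFC5. The 7 are 18.9% of the list, beside 5.39% of all genes called lower and 4.44% called higher. The number that fell was 14 without knockdown library 3, and 2 to 5 with any other library left out, beside 20.4% and 0.249% to 3.24% of all genes. PCNA had 106, 102 and 102 CPM in rescue libraries, 187, 187 and 175 CPM in knockdown-labelled libraries, and 148, 145 and 152 CPM in controls (-0.82 (SE 0.102, adjusted p = 0.00698)), and the 3 groups did not overlap. In rescue against control libraries 35 of the 37 were negative with a median of -0.27, close to the -0.27 of the 51 genes, and none passed, 13 (35.1%) having an unadjusted p under 0.05, beside 10.5% of all genes. Whether the lower level in rescue differs between the replication and the mitotic genes was not tested.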

How the data were processed

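RNA of 9 LAPC4 libraries was counted per gene. Deposited values are read counts in whole numbers, and the authors did not normalize them. FastQC, cutadapt, STAR, HTSeq and hg38 are named per the submitters' processing notes. Versions, settings and use of strand are nowhere given in the sources used here. Reads on no feature (43.7% to 48.7%), ambiguous (2.36% to 3.14%) or aligned to several places (7.67% to 11.6%) stayed out.

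Counts were tested in R 4.3.3 with edgeR 4.0.16 (quasi-likelihood F test, TMM, filterByExpr at 10 counts, all 9 libraries, 6 residual degrees of freedom) and Benjamini-Hochberg adjustment over 16796 genes. CPM are counts per 1000000 scaled by TMM. Standard errors are the log2 fold change over the square root of F; intervals hold 95% confidence. The script was tested on simulated data. DESeq2 1.42.0 and limma 3.58.1 gave alternatives, as did other scalings, filters, sample sets, a replicate block and a loess correction for length and GC content (span 0.5; 96.4% of tested genes had both). Length, GC content and overlaps came from GENCODE 29 (GRCh38), in which 55684 symbols matched 1 gene.

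The members and lists were chosen with earlier results of these data known. Every used member could be named. Values in every library are given for members that passed, the 5 with the smallest p per comparison and the highest per kilobase in each role, and values from other lists for genes that passed. Replicate numbers were checked as pairs: same-numbered libraries correlated at -0.355 to 0.0784, and differently numbered ones at -0.162 to 0.269.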

Additional observations from a re-analysis of the deposited data

How the results depend on the processing

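Alternatives were counted over all 3 comparisons for the 14 genes called in rescue against knockdown-labelled libraries, with HMMR and PLK1. Of these values, 741 kept their direction and their side of the threshold, 104 lost and 49 gained significance, and 18 changed sign. None of these genes passed in the other comparisons, so no call could be lost there. All 104 losses therefore fell in rescue against knockdown-labelled libraries. Members called in rescue against knockdown-labelled libraries numbered 14, but 5 without scaling factors, 21 (20 lower, 1 higher) by DESeq2, 18 without a filter, 0 with only these groups, 28 without knockdown libraries 1 and 2 together, and 2 to 27 with each library left out. In rescue against control libraries the 0 became 2 by DESeq2 and 11 with only these groups, all lower, beside 0.50% and 1.95% of all genes. With each library left out it ran from 0 to 16, the 16 without knockdown library 3, where 2.86% of all genes were called lower. In knockdown-labelled against control libraries the 0 became 6 by DESeq2, 3 without a filter, 10 without knockdown libraries 1 and 2, and 0 to 25 with each library left out. Medians moved to -0.11 (knockdown-labelled against control) and -0.10 (rescue against knockdown-labelled) without scaling factors, and the last ran from -0.41 to -0.20 with each library left out. No scaling shifted the median of all genes by 0.24 in rescue against knockdown-labelled libraries, with 1327 higher and 230 lower, and by -0.21 in knockdown-labelled against control libraries, with 12 higher and 141 lower. All genes called in rescue against knockdown-labelled libraries numbered 2636 without a filter, 2702 by DESeq2, 3619 without knockdown libraries 1 and 2, 7 with only these groups, and 134 to 6745 with each library left out. In rescue against control libraries they numbered 401 without a filter, 326 by DESeq2, 13 by limma-voom, 977 without knockdown libraries 1 and 2, 962 with only these groups, and 1 to 1276 with each library left out. In knockdown-labelled against control libraries they numbered 1045 without a filter, 1009 by DESeq2, 3 with the length and GC correction, 2115 without knockdown libraries 1 and 2, 0 with only these groups, and 0 to 5691 with each library left out.

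The replicate numbers do not pair the libraries by the check made. Same-numbered libraries of different groups correlated at -0.355 to 0.0784, and differently numbered ones at -0.162 to 0.269. With the replicate block, 7 members were called in rescue against knockdown-labelled libraries, all lower, and 0 in each other comparison, beside 442, 4 and 0 of all genes in rescue against knockdown-labelled, rescue against control and knockdown-labelled against control libraries.

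Log2 fold changes that changed sign in knockdown-labelled against control libraries were CDC20 (-0.0923 without scaling, -0.0736 without knockdown libraries 1 and 2 together), TTK (-0.0291 without scaling), UBE2C (-0.164 without knockdown libraries 1 and 2 together) and HMMR (-0.132 with the length and GC correction, -0.0917 without scaling, and -0.0742 to 0.216 with each library left out). NDC80, at -0.00031, became 0.00264 by limma-voom and 0.000796 with the replicate block, and ran from -0.0469 to 0.0287 with each library left out. PLK1 in rescue against knockdown-labelled libraries became 0.126 without scaling and ran from -0.209 to 0.036 with each library left out. INCENP in rescue against control libraries ran from -0.173 to 0.0468 with each library left out. Apart from fewer libraries or genes in a fit, the cause of these changes was not tested.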
